A study of Mus musculus with 6 samples.

Results

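The collagen genes of the mouse cochlea were taken as every gene whose symbol has the form Col, number, a, number, and 44 of the 51802 gene symbols in the deposited tables met this rule. They were listed with 216 of the 128603 transcripts, and the counts and FPKM values of a gene's transcripts were summed within each sample. RNA was sequenced from whole cochleae of mice aged 2 months on the C57/BL6J strain background, with 3 wildtype samples (replicates 3, 4 and 5) and 3 *Pou4f3(Δ/+)* samples (replicates 1, 2 and 3). *Pou4f3(Δ/+)* mice are heterozygous for a knock-in allele of *Pou4f3*, a transcription factor gene of hair cells, in which a short deletion and a C-to-T change bring in a premature stop codon. The allele was made in W4 embryonic stem cells with a targeting vector of 129/sv origin and a loxP-Neo-loxP cassette, and both groups share a strain background known for early age-related hearing loss. The labels do not say whether each sample came from a separate animal, so p-values measure the spread between these samples only. The comparison asks which transcript levels of the young adult cochlea differ between the genotypes.

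Collagens are extracellular proteins built from alpha chains that wind into triple helices. Fibrillar collagens (types I, II, III, V, XI, XXIV and XXVII) form the fibers of bone, cartilage and connective tissue, FACIT collagens such as types IX and XII sit on the surface of those fibers, type IV collagens form the network of basement membranes, and type VI collagen forms beaded filaments around cells. In the cochlea, types II, IX and XI build the collagen fibrils of the tectorial membrane, the sheet that lies over the hair cells, types I and III belong to bone and connective tissue, and type IV chains line the vessels of the stria vascularis and the spiral limbus.

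The summed estimated counts were between 14295069 and 17696784 per sample. *Pou4f3* itself was counted 68, 72 and 88 times in the wildtype samples, in replicate order, against 66, 97 and 52 times in the mutant samples (log2 fold change -0.06, edgeR adjusted p = 0.966). The groups overlapped, so the level of this transcript does not check the genotype labels. On the first principal component of all genes, which held 32.5% of the variance, *Pou4f3(Δ/+)* replicates 1 and 2 lay at 23.2 and 40.2, and the other 4 samples, with *Pou4f3(Δ/+)* replicate 3 among them, between -21.5 and -11.7. Values without them are given beside each collagen gene with an unadjusted p under 0.05. The labelled tissue was checked by its markers: *Coch*, a secreted protein of spiral ligament fibrocytes, was between 2030 and 2828 FPKM and the hair cell myosin *Myo7a* between 8.13 and 10.3 FPKM. Genes of bone were also high, with *Ibsp*, a bone matrix protein, at a mean of 434 FPKM in wildtype against 376 FPKM in *Pou4f3(Δ/+)*.

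Collagens took a small share of the cochlear transcriptome. In wildtype replicates 3, 4 and 5 the 44 genes held 0.283%, 0.300% and 0.379% of all counts, and in *Pou4f3(Δ/+)* replicates 1, 2 and 3 they held 0.227%, 0.202% and 0.286%. The *Pou4f3(Δ/+)* replicate 3 value lay between those of wildtype replicates 3 and 4, so the groups overlapped on this scale. In summed CPM scaled by TMM factors, the scale of the tests, all 3 *Pou4f3(Δ/+)* samples lay below all 3 wildtype samples. On that scale *Pou4f3(Δ/+)* replicate 3 was only just under wildtype replicate 3. In summed FPKM the groups overlapped, with 545 in *Pou4f3(Δ/+)* replicate 3 and 543 in wildtype replicate 3. As a share of all counts, the wildtype mean was 0.321% ± 0.0510 (SD, n = 3) and the mutant mean 0.238% ± 0.0430 (SD, n = 3). In whole tissue, fewer cells of a type and less RNA per cell cannot be told apart.

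Levels between genes were compared in FPKM, which divides by transcript length. The 11 fibrillar genes held 69.9% of the collagen FPKM over the 6 samples, the 9 FACIT genes 11.9%, the 6 basement membrane genes 5.85%, the 7 beaded filament genes 5.16%, the 3 short chain network genes 4.26%, the 4 transmembrane genes 1.79% and the 2 multiplexins 0.862%, leaving *Col7a1* and *Col26a1*, each the only gene of its class. The 3 most abundant genes were *Col1a2* and *Col1a1*, the chains of type I collagen of bone and connective tissue, with means over all samples of 122 and 79.1 FPKM, and *Col11a2*, a chain of the thin cartilage-type fibrils, with 76.4 FPKM. A wide gap followed, and *Col2a1*, the main cartilage collagen, came next at 19.3 FPKM. *Col11a2* was thus far above the chain it pairs with, *Col11a1*, at 17.7 FPKM. The 6 cochlear cartilage-type genes (*Col2a1*, *Col9a1*, *Col9a2*, *Col9a3*, *Col11a1* and *Col11a2*) made up 27.5% of the collagen FPKM.

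At the low end, 5 genes did not pass the count filter: *Col6a4*, *Col6a5*, *Col6a6*, *Col10a1*, the collagen of hypertrophic cartilage, and *Col17a1*, the transmembrane collagen of epithelial hemidesmosomes. None of these 5 exceeded 0.27 FPKM in any sample, and the tests below cover the other 39 genes. Exons of 13 of the 44 genes overlap exons of another gene, and whether the counting used strand was not given in the sources used here. Those above a mean of 5 FPKM are *Col4a1* and *Col4a2*, whose exons overlap each other on opposite strands, *Col3a1*, *Col9a3* and *Col5a1*, and their values may include reads of the other gene.

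**Figure D1:**
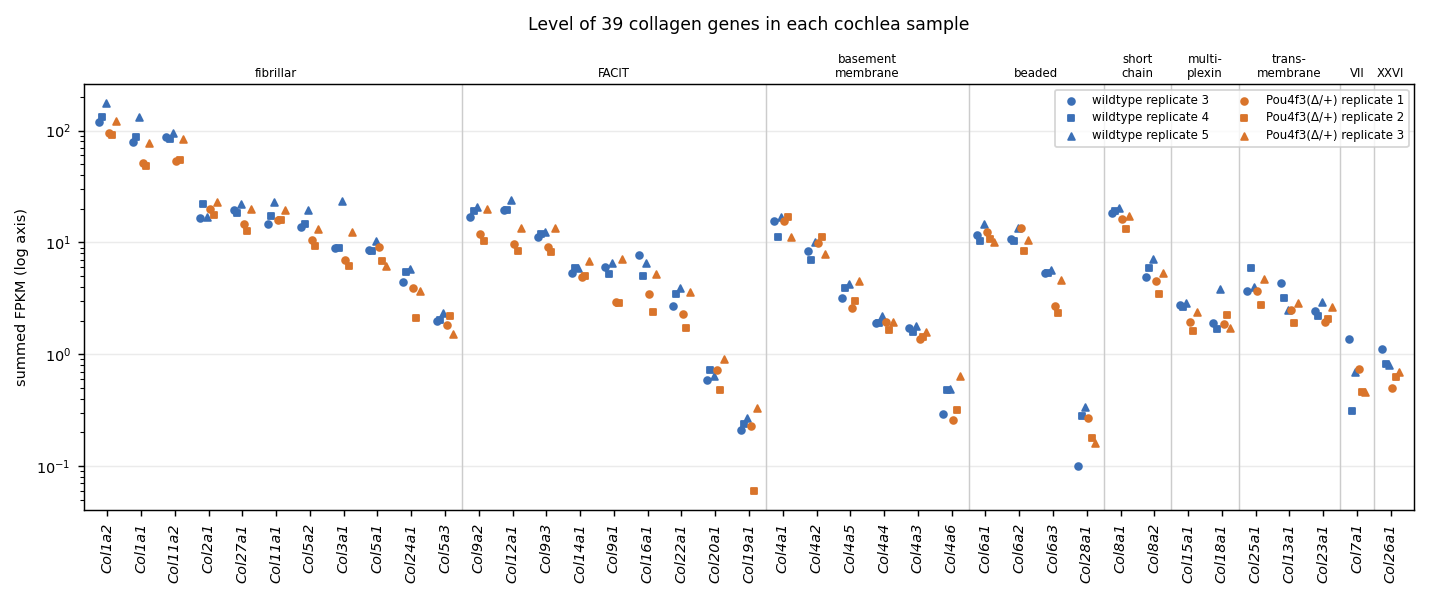
Summed FPKM (log axis) of the 39 collagen genes that passed the count filter, grouped by class and ordered by mean level, with a point per sample (blue, wildtype replicates 3, 4 and 5; orange, *Pou4f3(Δ/+)* replicates 1, 2 and 3). *Col1a2*, *Col1a1* and *Col11a2* stand above the rest, and the points span more than 3 orders of magnitude down to *Col19a1*.

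Most collagen genes had lower means in *Pou4f3(Δ/+)*, but none passed the adjusted test of edgeR. Of the 39 genes, 35 had a negative log2 fold change (*Pou4f3(Δ/+)* minus wildtype) and 4 a positive value, with a median of -0.31 beside -0.00 over all 17136 genes tested, of which 50.6% had negative values. By edgeR's quasi-likelihood test with Benjamini-Hochberg adjustment, 0 of the 39 had an adjusted p under 0.05 (0.0% of all genes did), and the smallest adjusted p of a collagen gene was 0.643. At an unadjusted p under 0.05, 12 collagen genes were called and each of them was lower in *Pou4f3(Δ/+)*, where 7.64% of all genes were called in either direction and 4.14% as lower. DESeq2 called 1 collagen gene, *Col12a1*, beside 0.374% of all genes. In CPM, counts divided by the library total and scaled by TMM factors, all 3 *Pou4f3(Δ/+)* samples lay below all 3 wildtype samples for 10 collagen genes, beside 6.59% of all genes, and above them for 0.

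The difference was smaller without the libraries that stood apart. Without *Pou4f3(Δ/+)* replicates 1 and 2, the median log2 fold change was -0.14, 26 of the 39 genes had a negative value and 4 had an unadjusted p under 0.05, each lower in *Pou4f3(Δ/+)*, beside 3.54% of all genes in either direction. In that comparison 8688 of 17130 genes had a negative value. The 4 were *Col12a1*, *Col24a1*, *Col5a1* and *Col5a3*, and the last pair, chains of type V collagen, are named after their values were seen. *Col5a1* had log2 fold changes of -0.31 with all samples and -0.59 without these replicates (edgeR unadjusted p = 0.0788 and 0.00584), and *Col5a3* of -0.19 and -0.52, so both were lower in replicate 3 than in the 2 libraries that stood apart. For 14 of the 39 genes, replicates 1 and 2 lay below every wildtype sample in CPM while replicate 3 did not, a pattern shown by 12.3% of all genes. These 14 were the 3 type IX chains, *Col11a2*, *Col27a1*, *Col3a1*, *Col14a1*, *Col16a1*, *Col19a1*, *Col22a1*, *Col8a2*, *Col4a5*, *Col23a1* and *Col25a1*.

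**Figure D2:**
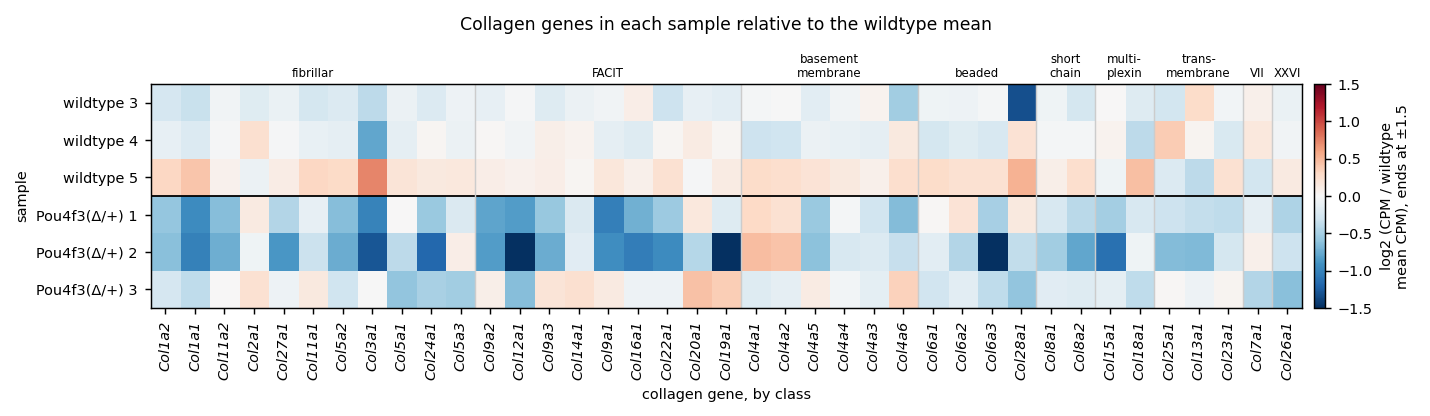
Heatmap of log2 (CPM over the mean wildtype CPM) for the 39 tested collagen genes (columns, by class) in the 6 samples (rows), with the color scale ending at ±1.5. *Pou4f3(Δ/+)* replicates 1 and 2 are blue, that is below the wildtype mean, in most columns and red for *Col4a1* and *Col4a2*, while replicate 3 is near the wildtype rows for the type IX chains and *Col11a2*.

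Type I collagen, the chief protein of bone matrix, stood lower in the mutant samples. *Col1a1* (chromosome 11, 94936224 to 94953042 in the GENCODE M21 annotation of GRCm38) had 78.4, 86.9 and 131.5 FPKM in wildtype replicates 3, 4 and 5 and 51.8, 48.4 and 77.7 FPKM in *Pou4f3(Δ/+)* replicates 1, 2 and 3. Its groups did not overlap, though *Pou4f3(Δ/+)* replicate 3 lay just under the lowest wildtype sample. The log2 fold change was -0.75 (SE 0.22, edgeR unadjusted p = 0.00834, adjusted p = 0.643), or 59.4% of the wildtype level. *Col1a2* (chromosome 6, 4504814 to 4541544) had 118, 132 and 175 FPKM in wildtype against 95.1, 91.1 and 121.6 FPKM in *Pou4f3(Δ/+)*, with a log2 fold change of -0.48 (SE 0.16, edgeR unadjusted p = 0.0156, adjusted p = 0.643). Here *Pou4f3(Δ/+)* replicate 3 exceeded the lowest wildtype sample in FPKM, and lay just under it in CPM (619.5 against 619.6). Wildtype replicate 5 was the highest sample for both chains. Without *Pou4f3(Δ/+)* replicates 1 and 2, the log2 fold changes were -0.38 for *Col1a1* and -0.25 for *Col1a2*.

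The helix of type I collagen takes up a pair of alpha 1 chains for each alpha 2 chain. The ratio of *Col1a1* to *Col1a2* FPKM was 0.662, 0.661 and 0.751 in wildtype and 0.545, 0.531 and 0.639 in *Pou4f3(Δ/+)*, so transcripts of *Col1a2* were the more abundant in every sample and the groups did not overlap. The means were 0.692 ± 0.0519 (SD, n = 3) and 0.572 ± 0.0584 (SD, n = 3).

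*Col5a2*, a chain of the type V collagen that sits inside type I fibrils, had 13.7, 14.7 and 19.65 FPKM in wildtype against 10.5, 9.29 and 13.1 FPKM in *Pou4f3(Δ/+)*. The groups did not overlap, and the log2 fold change was -0.55 (SE 0.15, edgeR unadjusted p = 0.00623, adjusted p = 0.643), and -0.30 (unadjusted p = 0.161) without *Pou4f3(Δ/+)* replicates 1 and 2. *Col24a1*, a fibrillar collagen of developing bone and retina, had 4.45, 5.41 and 5.83 FPKM in wildtype against 3.93, 2.10 and 3.65 FPKM in *Pou4f3(Δ/+)*. Its groups did not overlap either, and its unadjusted p was under 0.05 with and without *Pou4f3(Δ/+)* replicates 1 and 2 (log2 fold change -0.71 with all samples, edgeR unadjusted p = 0.00441, and -0.48 without them, unadjusted p = 0.0300, adjusted p = 1.00). *Col27a1*, a fibrillar collagen of cartilage, had 19.4, 18.5 and 22.2 FPKM in wildtype against 14.7, 12.7 and 19.9 FPKM in *Pou4f3(Δ/+)*, and replicate 3 fell among the wildtype values. Its log2 fold change of -0.43 (edgeR unadjusted p = 0.0346, adjusted p = 0.643) was -0.07 without *Pou4f3(Δ/+)* replicates 1 and 2. *Col3a1*, the fibrillar collagen of soft connective tissue, is named for its spread, seen after its values were known: wildtype replicate 5 had 23.5 FPKM against 8.98 and 8.93 FPKM in replicates 3 and 4, and *Pou4f3(Δ/+)* had 6.94, 6.18 and 12.45 FPKM. Of the 11 fibrillar genes, 10 had negative values and 6 an unadjusted p under 0.05, each lower, with a median log2 fold change of -0.43, beside 50.6% of all genes negative and 4.14% called as lower. Of the same 11 genes, 8 were negative and 3 had an unadjusted p under 0.05 without *Pou4f3(Δ/+)* replicates 1 and 2 (3.54% of all genes), with a median of -0.25.

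Of the 6 cartilage-type chains of the tectorial membrane, 5 had negative log2 fold changes with all samples, with a median of -0.36. Over all genes tested, 50.6% had negative values. Without *Pou4f3(Δ/+)* replicates 1 and 2, 0 of the 6 were negative and the median was 0.14. *Col2a1* (chromosome 15, 97975602 to 98004695) had 16.5, 22.0 and 16.9 FPKM in wildtype against 19.9, 17.4 and 22.9 FPKM in *Pou4f3(Δ/+)*, with overlapping groups and a log2 fold change of 0.11 (95% interval -0.17 to 0.38, edgeR adjusted p = 0.830). *Col11a1* had 14.6, 17.2 and 22.9 FPKM in wildtype against 16.0, 16.0 and 19.7 FPKM in *Pou4f3(Δ/+)*, again with overlapping groups (log2 fold change -0.09, 95% interval -0.45 to 0.28, edgeR adjusted p = 0.905). *Col11a2* (chromosome 17, 34039437 to 34066685) had 87.6, 83.8 and 94.9 FPKM in wildtype. In *Pou4f3(Δ/+)* it had 53.4 and 54.35 FPKM in replicates 1 and 2 and 84.15 FPKM in replicate 3, a value inside the wildtype range. Its log2 fold change was -0.41 (SE 0.18, edgeR unadjusted p = 0.0444, adjusted p = 0.643) with all samples, 0.01 without replicates 1 and 2, and -0.68 (edgeR adjusted p = 0.0183) without replicate 3. The fit without replicate 3 called more of all genes too, as given at the end.

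Type IX collagen, whose 3 chains decorate type II fibrils, split the mutant samples in the same way. *Col9a2*, its most abundant chain, had 17.0, 18.95 and 20.6 FPKM in wildtype against 11.8, 10.2 and 20.0 FPKM in *Pou4f3(Δ/+)* replicates 1, 2 and 3. *Col9a3* had 11.2, 11.9 and 12.4 FPKM in wildtype against 9.17, 8.29 and 13.5 FPKM in *Pou4f3(Δ/+)*, and *Col9a1* had 6.02, 5.27 and 6.51 FPKM in wildtype against 2.95, 2.87 and 7.18 FPKM in *Pou4f3(Δ/+)*. Replicates 1 and 2 were below every wildtype sample for all 3 chains, and replicate 3 was at or above the middle wildtype value. The log2 fold changes were -0.45, -0.31 and -0.51 for *Col9a2*, *Col9a3* and *Col9a1* (edgeR adjusted p from 0.651 to 0.732), and 0.09, 0.19 and 0.13 without replicates 1 and 2. Without replicate 3, *Col9a2* (-0.81, edgeR adjusted p = 0.0181) and *Col9a1* (-0.97, edgeR adjusted p = 0.0300) passed the adjusted test. More of all genes also passed in that fit than with all samples, as given at the end.

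Of the chain ratios taken within these types, only that of *Col9a3* to *Col9a2* separated the groups. Per length, *Col9a3* was 0.656, 0.630 and 0.601 of *Col9a2* in wildtype and 0.778, 0.811 and 0.674 in *Pou4f3(Δ/+)*, so the groups did not overlap. *Col9a1* was between 0.250 and 0.359 of *Col9a2* in all samples, with overlapping groups. *Col11a1* was between 0.167 and 0.241 of *Col11a2* in wildtype and between 0.234 and 0.300 in *Pou4f3(Δ/+)*, and the groups overlapped. The summed FPKM of the 6 cartilage-type genes was 152.9, 159.2 and 174.2 in wildtype and 113.2, 109.2 and 167.5 in *Pou4f3(Δ/+)*, and replicate 3 stood at 103% of the wildtype mean.

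**Figure D3:**
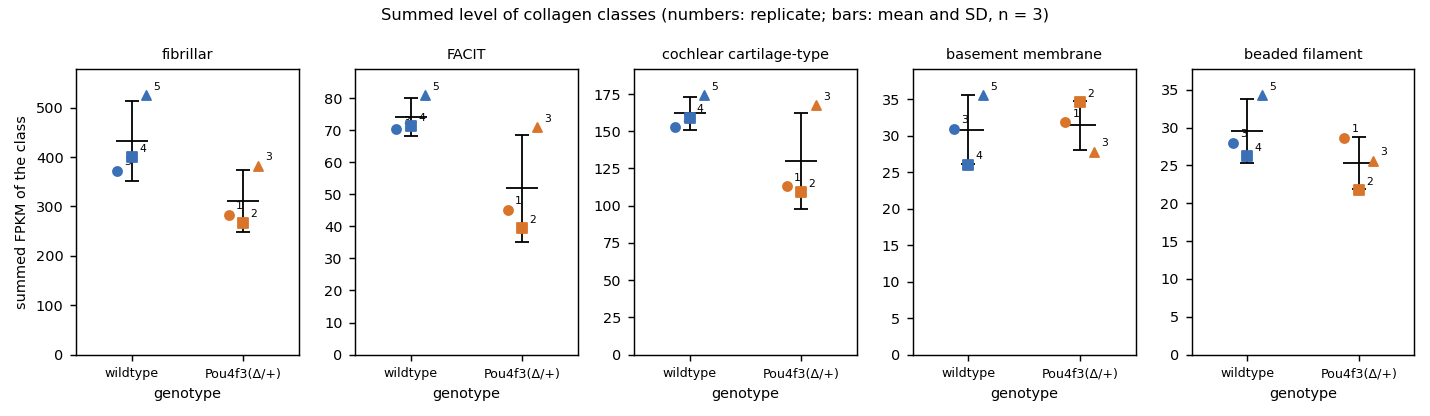
Summed FPKM of 5 collagen groups in each sample (points, with replicate numbers; black bars, mean and SD, n = 3; axes start at 0). The 6 cartilage-type genes also count in the fibrillar or FACIT class; *Pou4f3(Δ/+)* replicate 3 lies near or within the wildtype points in each panel, and replicates 1 and 2 lie below them for the fibrillar, FACIT and cartilage-type sums.

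Among the other FACIT genes, *Col12a1* had the smallest p of the collagens tested. Type XII collagen bridges type I fibrils in tendon, ligament and the surface of bone. *Col12a1* (chromosome 9, 79598991 to 79718831) had 19.7, 19.7 and 24.1 FPKM in wildtype against 9.73, 8.35 and 13.4 FPKM in *Pou4f3(Δ/+)*, and in CPM 171, 166 and 181 against 96.8, 60.0 and 111. All 3 *Pou4f3(Δ/+)* samples, replicate 3 included, lay below all wildtype samples. The log2 fold change was -0.95 (SE 0.19, 95% interval -1.38 to -0.53), 51.7% of the wildtype level. Its edgeR p was 0.000708 (adjusted p = 0.643), while DESeq2 gave an adjusted p of 0.000263. Without *Pou4f3(Δ/+)* replicates 1 and 2 the log2 fold change was -0.64 (edgeR unadjusted p = 0.000353, adjusted p = 0.304), and the difference kept its sign. Over 14 alternatives its adjusted p ranged from 0.000263 to 0.941 and passed 0.05 in 3.

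*Col16a1*, a FACIT collagen found near small fibrils in cartilage and skin, had 7.72, 5.04 and 6.59 FPKM in wildtype against 3.44, 2.40 and 5.21 FPKM in *Pou4f3(Δ/+)*, with replicate 3 inside the wildtype range (log2 fold change -0.56, edgeR unadjusted p = 0.0336, adjusted p = 0.643). It was -0.08 (unadjusted p = 0.638) without *Pou4f3(Δ/+)* replicates 1 and 2. Of the 9 FACIT genes, 8 had negative values and 2 an unadjusted p under 0.05, each lower, with a median of -0.45, beside 50.6% of all genes negative and 4.14% called as lower. Without *Pou4f3(Δ/+)* replicates 1 and 2 the FACIT median was 0.13, 3 of the 9 were negative and 1 had an unadjusted p under 0.05, beside 3.54% of all genes. The remaining FACIT genes *Col14a1*, *Col22a1*, *Col20a1* and *Col19a1* had mean levels between 0.223 and 5.64 FPKM and log2 fold changes between -0.48 and 0.10, with overlapping groups.

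Basement membrane collagens had like sums in both groups. The summed FPKM of the 6 type IV genes was 30.9, 26.0 and 35.5 in wildtype and 31.8, 34.5 and 27.8 in *Pou4f3(Δ/+)*. *Col4a1*, which with *Col4a2* forms the network of nearly all basement membranes, had 15.4, 11.1 and 16.8 FPKM in wildtype against 15.7, 16.9 and 11.25 FPKM in *Pou4f3(Δ/+)*. *Col4a2* had 8.42, 6.98 and 10.1 FPKM in wildtype against 9.98, 11.3 and 7.86 FPKM in *Pou4f3(Δ/+)*. *Pou4f3(Δ/+)* replicate 2 was the highest sample and replicate 3 among the lowest for both genes, and the groups overlapped. The log2 fold changes were 0.22 for *Col4a1* (95% interval -0.20 to 0.63) and 0.19 for *Col4a2* (95% interval -0.19 to 0.57), with edgeR adjusted p of 0.775 and 0.777, and became -0.19 and -0.14 without *Pou4f3(Δ/+)* replicates 1 and 2, which leaves replicate 3 as the mutant sample.

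*Col4a3*, *Col4a4* and *Col4a5*, the chains of the specialised network that is affected in Alport syndrome with hearing loss, were less abundant. *Col4a5* was between 3.19 and 4.22 FPKM in wildtype and between 2.59 and 4.51 FPKM in *Pou4f3(Δ/+)*. *Col4a4* was between 1.90 and 2.18 FPKM in wildtype and between 1.65 and 1.96 FPKM in *Pou4f3(Δ/+)*, and *Col4a6* was under 1 FPKM in every sample. *Col4a3* had 14.8, 12.9 and 14.95 CPM in wildtype and 11.7, 12.4 and 12.8 CPM in *Pou4f3(Δ/+)*, and its groups did not overlap on that scale, although its log2 fold change was -0.21 with an edgeR unadjusted p of 0.122. *Col4a3* was between 0.697 and 0.901 of *Col4a4* in every sample, with overlapping groups. In FPKM, *Col4a1* was 1.83, 1.60 and 1.67 times *Col4a2* in wildtype and 1.57, 1.49 and 1.43 times in *Pou4f3(Δ/+)*, and these groups did not overlap. That FPKM includes a short *Col4a1* transcript, described below, that was lower in *Pou4f3(Δ/+)*. By estimated counts the ratio overlapped between the groups. *Col4a1* was counted 1334, 922 and 1635 times in wildtype and 1728, 1667 and 1032 times in *Pou4f3(Δ/+)*. The counts of *Col4a2* were 937, 644 and 1115 in wildtype and 1139, 1129 and 743 in *Pou4f3(Δ/+)*. None of the 6 type IV genes had an unadjusted p under 0.05.

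The paired type IV genes lie head to head. In the GENCODE M21 annotation, *Col4a1* and *Col4a2* on chromosome 8 overlap by 22 bases at their starts, *Col4a6* and *Col4a5* on chromosome X are 1308 bases apart, and *Col4a4* and *Col4a3* on chromosome 1 are 71 bases apart. The stretch between *Col4a4*, read to the left, and *Col4a3*, read to the right, is shown because both genes start at its edges. It covers chr1:82586850-82586920 (GRCm38.p6, plus strand, RefSeq promoter table), has a GC content of 69.0% and holds no match to the motif CCAAT, to the motif TATAAA or to the motif GGGCGG on either strand.
*Col4a4* to *Col4a3*: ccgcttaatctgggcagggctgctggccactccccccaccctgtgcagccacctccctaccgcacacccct

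Of the tested type VI chains, *Col6a3* had the lowest log2 fold change, by a smaller gap without *Pou4f3(Δ/+)* replicates 1 and 2. *Col6a1* was between 10.2 and 14.6 FPKM in wildtype and between 10.1 and 12.3 FPKM in *Pou4f3(Δ/+)* (log2 fold change -0.14, and -0.29 without those replicates). *Col6a2* was between 10.3 and 13.5 FPKM in wildtype and between 8.43 and 13.3 FPKM in *Pou4f3(Δ/+)* (log2 fold change -0.11, and -0.16 without them). *Col6a3*, the largest chain, had 5.35, 5.29 and 5.69 FPKM in wildtype against 2.68, 2.32 and 4.62 FPKM in *Pou4f3(Δ/+)*. The groups did not overlap, and the log2 fold change was -0.74 (SE 0.28, edgeR unadjusted p = 0.0274, adjusted p = 0.643) and -0.38 without *Pou4f3(Δ/+)* replicates 1 and 2. The ratio of *Col6a3* to *Col6a2* was between 0.422 and 0.515 in wildtype, and 0.201, 0.275 and 0.438 in *Pou4f3(Δ/+)*, so the groups overlapped. *Col28a1*, of the same class, was at a mean of 0.222 FPKM with a log2 fold change of -0.22.

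*Col8a1* and *Col8a2*, the chains of the hexagonal type VIII network made by endothelium and smooth muscle, both had an unadjusted p under 0.05 with all samples, and neither did without *Pou4f3(Δ/+)* replicates 1 and 2 (log2 fold changes -0.17 and -0.19, edgeR unadjusted p = 0.148 and 0.379). *Col8a1* had 18.25, 18.9 and 20.3 FPKM in wildtype against 16.3, 13.2 and 17.2 FPKM in *Pou4f3(Δ/+)*, with no overlap and a log2 fold change of -0.30 (SE 0.10, edgeR unadjusted p = 0.0148, adjusted p = 0.643). *Col8a2* had 4.95, 5.88 and 7.04 FPKM in wildtype against 4.51, 3.43 and 5.29 FPKM in *Pou4f3(Δ/+)*, where replicate 3 overlapped the wildtype samples (log2 fold change -0.44, edgeR unadjusted p = 0.0352).

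Of the multiplexins, which carry anti-angiogenic fragments at their ends, *Col15a1* had 2.74, 2.65 and 2.85 FPKM in wildtype against 1.94, 1.61 and 2.40 FPKM in *Pou4f3(Δ/+)*. Its groups did not overlap, and the log2 fold change was -0.54 (edgeR unadjusted p = 0.0453, adjusted p = 0.643), but -0.14 (unadjusted p = 0.473) without *Pou4f3(Δ/+)* replicates 1 and 2. *Col18a1* was between 1.68 and 3.86 FPKM in wildtype and between 1.72 and 2.25 FPKM in *Pou4f3(Δ/+)*, and its groups overlapped. The transmembrane collagens *Col25a1*, *Col13a1* and *Col23a1* had log2 fold changes of -0.29, -0.35 and -0.20 with no unadjusted p under 0.05. *Col26a1* was at or under 1.12 FPKM, and its groups did not overlap (1.75, 1.80 and 2.05 CPM in wildtype, 1.36, 1.51 and 1.21 CPM in *Pou4f3(Δ/+)*), with an edgeR unadjusted p of 0.138. *Col7a1*, which anchors epithelia to the underlying matrix, was between 0.31 and 1.36 FPKM.

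**Figure D4:**
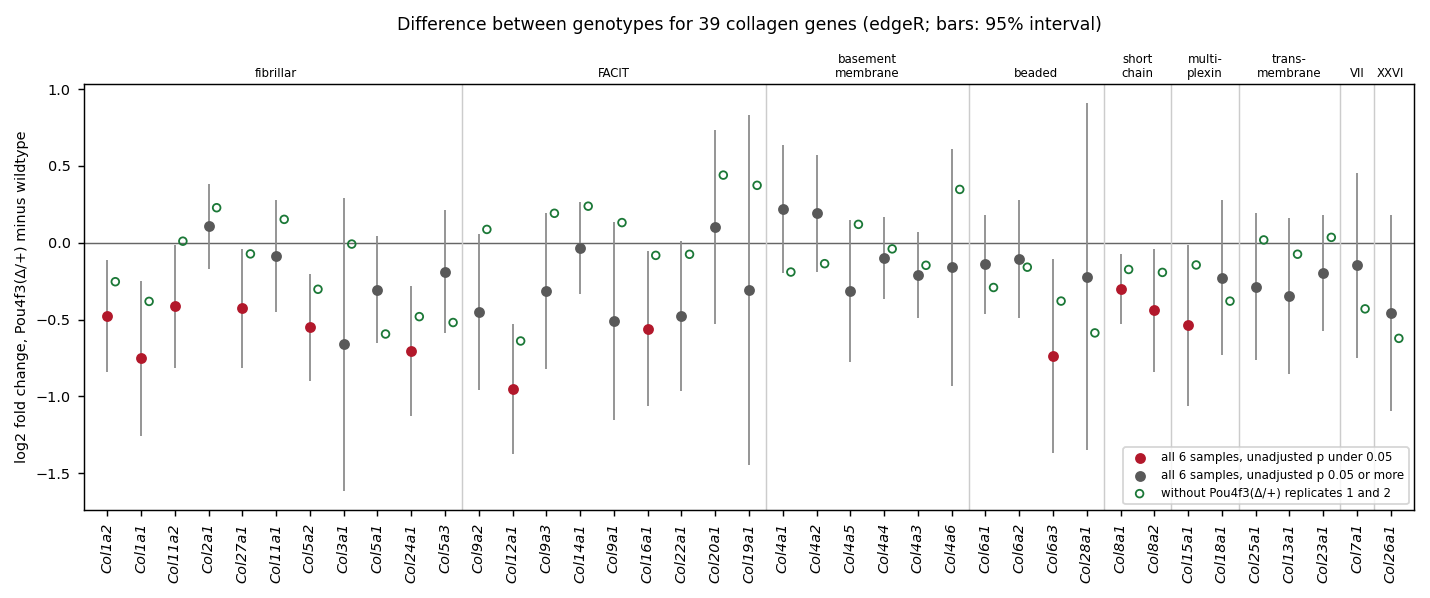
Log2 fold change (*Pou4f3(Δ/+)* minus wildtype) of the 39 tested collagen genes by class, with 95% intervals from edgeR (red, unadjusted p under 0.05; gray, otherwise) and the value without *Pou4f3(Δ/+)* replicates 1 and 2 (open green circles). The 12 red points all lie below 0, and the open circles of *Col11a2* and the type IX chains lie above 0 while those of *Col12a1*, *Col1a1* and *Col24a1* stay below.

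At the level of transcripts, 77 of the 216 collagen transcripts passed the count filter, 67 of them with negative log2 fold changes. By edgeR 0 had an adjusted p under 0.05 (0.0% of the 38347 transcripts tested), 10 had an unadjusted p under 0.05 (4.14% of all transcripts), each lower in *Pou4f3(Δ/+)*, and DESeq2 called 1 (0.34% of all transcripts). The DESeq2 call was ENSMUST00000071750, the full-length transcript of *Col12a1*, with 13.4, 12.5 and 13.7 FPKM in wildtype against 7.82, 4.49 and 8.32 FPKM in *Pou4f3(Δ/+)* (DESeq2 adjusted p = 0.0105, edgeR adjusted p = 0.999). The next by edgeR p were the protein-coding transcripts ENSMUST00000029848 of *Col24a1* (log2 fold change -0.74) and ENSMUST00000086430 of *Col5a2* (-0.55) and ENSMUST00000001547 of *Col1a1* (-0.76), and a short transcript of *Col4a1* annotated for nonsense-mediated decay, ENSMUST00000209661. The last had 4.11, 1.52 and 2.64 FPKM in wildtype against 1.03, 0.22 and 0.68 FPKM in *Pou4f3(Δ/+)*, with a fitted log2 difference of -2.12 (SE 0.68, edgeR unadjusted p = 0.0187, adjusted p = 0.999). With it, the share of *Col4a1* FPKM held by the full-length transcript was 73.3%, 86.3% and 84.3% in wildtype and 93.4%, 95.7% and 94.0% in *Pou4f3(Δ/+)*, and the groups did not overlap. Protein-coding transcripts held 91.5% of all collagen FPKM.

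*Col2a1* was split between a transcript with its second exon, ENSMUST00000023123, and a transcript without it, ENSMUST00000088355. The exon encodes the cysteine-rich domain of the N-terminal propeptide, and the form that includes it (type IIA) is known from cartilage precursors, while the form without it (type IIB) is known from mature cartilage. It is 204 bases long (68 codons, so the frame is kept), at chr15:98000403-98000606 on the minus strand of GRCm38 (GENCODE M21), and is printed in capitals with 12 bases of each neighboring exon in lower case.
*Col2a1* exon 2: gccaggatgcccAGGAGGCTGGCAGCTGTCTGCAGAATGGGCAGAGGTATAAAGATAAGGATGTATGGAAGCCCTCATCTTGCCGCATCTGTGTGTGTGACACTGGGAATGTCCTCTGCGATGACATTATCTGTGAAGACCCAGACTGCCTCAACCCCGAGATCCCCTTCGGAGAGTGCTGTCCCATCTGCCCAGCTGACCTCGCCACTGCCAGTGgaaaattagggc
The transcript with this exon had 8.30, 10.4 and 9.56 FPKM in wildtype against 13.1, 10.9 and 9.63 FPKM in *Pou4f3(Δ/+)*, and the transcript without it 7.30, 10.9 and 7.10 FPKM in wildtype against 6.37, 5.91 and 11.5 FPKM in *Pou4f3(Δ/+)*. The exon 2 form thus made up 50.5%, 47.2% and 56.7% of *Col2a1* FPKM in wildtype against 65.9%, 62.4% and 42.0% in *Pou4f3(Δ/+)*. Replicates 1 and 2 were above and replicate 3 below every wildtype sample, so the shares overlapped between the groups.

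*Col11a2* had 7 transcripts above 1 FPKM, and the 3 most abundant protein-coding forms differ in the variable region of the N-terminal domain. They differ by 3 cassette exons on chromosome 17, each a multiple of 3 bases long, shown to tell the forms apart, with the exon in capitals and 12 bases of the exons it is spliced to in lower case (plus strand, GRCm38, GENCODE M21).
*Col11a2* 78-base exon, chr17:34045771-34045848: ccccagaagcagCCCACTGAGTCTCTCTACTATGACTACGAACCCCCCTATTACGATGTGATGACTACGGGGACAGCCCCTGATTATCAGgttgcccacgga
*Col11a2* 63-base exon, chr17:34046440-34046502: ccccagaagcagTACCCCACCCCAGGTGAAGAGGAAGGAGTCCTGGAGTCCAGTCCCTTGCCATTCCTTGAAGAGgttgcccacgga
*Col11a2* 180-base exon, chr17:34047098-34047277: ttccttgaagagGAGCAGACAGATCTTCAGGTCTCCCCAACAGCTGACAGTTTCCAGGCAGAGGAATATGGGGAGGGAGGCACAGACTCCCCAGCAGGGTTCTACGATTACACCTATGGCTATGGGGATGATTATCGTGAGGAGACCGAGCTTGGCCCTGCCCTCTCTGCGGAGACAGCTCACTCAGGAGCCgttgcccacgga
The transcript with the 63-base exon alone, ENSMUST00000087497, was the main form at 32.9, 43.65 and 47.7 FPKM in wildtype against 26.9, 30.9 and 45.6 FPKM in *Pou4f3(Δ/+)*. The transcript with the 78-base exon alone, ENSMUST00000114252, had 24.7, 20.1 and 18.1 FPKM in wildtype against 13.3, 5.87 and 19.8 FPKM in *Pou4f3(Δ/+)*, and the transcript with all 3 exons, ENSMUST00000131134, 7.80, 8.34 and 8.74 FPKM in wildtype against 5.79, 4.43 and 9.54 FPKM in *Pou4f3(Δ/+)*. The main form held between 37.6% and 52.1% of *Col11a2* FPKM in wildtype and between 50.4% and 56.9% in *Pou4f3(Δ/+)*, and the order of the 3 forms was the same in each sample. None of the 3 had an edgeR unadjusted p under 0.05.

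*Col9a1* has 2 starts that give a long and a short chain, and the choice between them was described after its values were seen. ENSMUST00000054588, from the upstream start, had at most 0.15 FPKM in any sample. The transcript from the downstream start, ENSMUST00000088349, which lacks the long N-terminal domain, had 4.94, 4.80 and 5.93 FPKM in wildtype against 2.57, 2.71 and 5.42 FPKM in *Pou4f3(Δ/+)*. The bases before both starts are shown, as given in the RefSeq promoter table (GRCm38.p6, plus strand), up to the first annotated exon.
*Col9a1* upstream start, chr1:24177360-24177609: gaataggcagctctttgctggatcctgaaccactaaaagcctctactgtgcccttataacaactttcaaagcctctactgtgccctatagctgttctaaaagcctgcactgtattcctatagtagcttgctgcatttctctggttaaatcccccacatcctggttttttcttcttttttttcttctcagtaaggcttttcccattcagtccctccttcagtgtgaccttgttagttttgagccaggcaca
*Col9a1* downstream start, chr1:24194953-24195186: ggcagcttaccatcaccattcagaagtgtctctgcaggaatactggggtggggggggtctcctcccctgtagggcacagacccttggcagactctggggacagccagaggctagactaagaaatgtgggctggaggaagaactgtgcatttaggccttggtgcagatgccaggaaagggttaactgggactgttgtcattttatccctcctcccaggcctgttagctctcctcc
Neither holds any of these motifs.

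**Figure D5:**
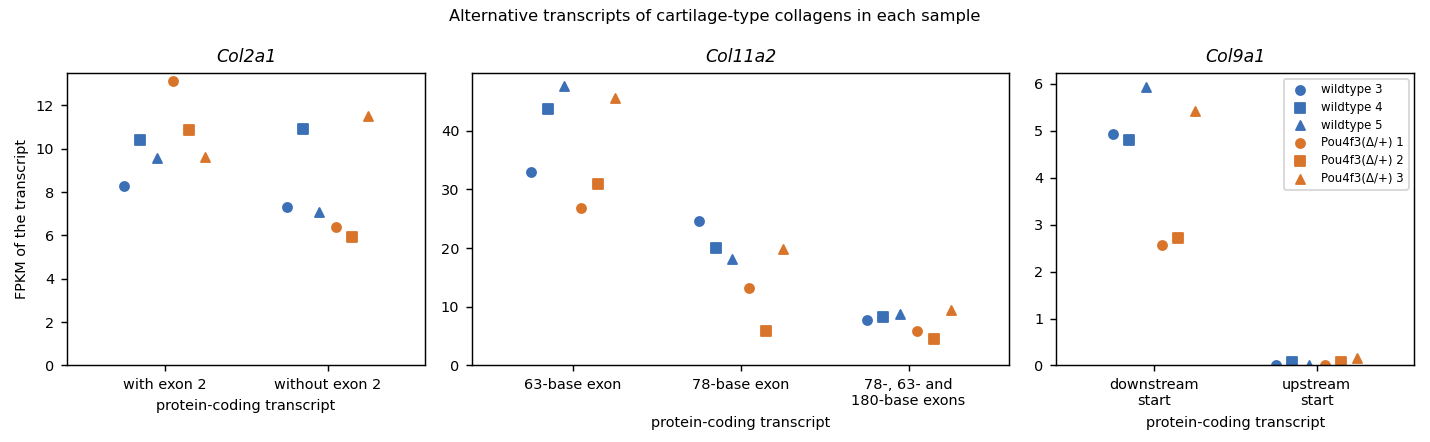
FPKM of protein-coding transcripts of *Col2a1*, *Col11a2* and *Col9a1* in each sample (blue, wildtype; orange, *Pou4f3(Δ/+)*; axes start at 0). Both *Col2a1* forms are present in each sample, the 63-base-exon form of *Col11a2* is the highest of its 3, and the upstream-start transcript of *Col9a1* is at or near 0.

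The RefSeq table held 38 windows of 300 bases around the starts (250 before and 50 after) for 35 of the 44 genes; *Col1a1*, *Col2a1*, *Col4a3*, *Col5a2*, *Col9a3*, *Col12a1*, *Col14a1*, *Col22a1* and *Col26a1* were not matched. The motif GGGCGG, searched like the others on both strands, was in 60.5% of the 38 windows and in 35.7% of all 32851 windows in the table. CCAAT was in 34.2% and 37.4%, and TATAAA in 13.2% and 13.6%. The 250 bases before the starts of *Col24a1* and *Col8a1* are shown, the genes with the smallest unadjusted p among those with a window and no annotated exon in these bases. Capitals mark GGGCGG or its reverse complement CCGCCC.
*Col24a1*, chr3:145292222-145292471, plus strand: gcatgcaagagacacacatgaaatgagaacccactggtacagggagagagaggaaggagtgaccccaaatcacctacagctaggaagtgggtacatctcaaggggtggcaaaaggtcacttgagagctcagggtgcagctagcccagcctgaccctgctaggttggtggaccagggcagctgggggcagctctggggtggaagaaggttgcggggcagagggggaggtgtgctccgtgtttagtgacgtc
*Col8a1*, chr16:57754738-57754987, minus strand: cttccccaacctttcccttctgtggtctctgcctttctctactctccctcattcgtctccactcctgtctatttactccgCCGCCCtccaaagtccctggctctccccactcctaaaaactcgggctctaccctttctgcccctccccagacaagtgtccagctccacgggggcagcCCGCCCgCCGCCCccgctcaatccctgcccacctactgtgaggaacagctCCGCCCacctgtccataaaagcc
*Col8a1* has 4 such matches and *Col24a1* has 0.

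Genes that modify, fold, process and bind collagens were taken as 7 lists with 78 genes tested. Of these, 56 had negative log2 fold changes and 14 had an unadjusted p under 0.05, each lower in *Pou4f3(Δ/+)*, with a median of -0.14. Over all genes tested, 50.6% had negative values and 4.14% were called as lower at that threshold, shares against which the counts with all samples are to be read. By edgeR 0 of the 78 had an adjusted p under 0.05, and DESeq2 called 2 (0.374% of all genes). Without *Pou4f3(Δ/+)* replicates 1 and 2, 58 were negative with a median of -0.12 and 11 had an unadjusted p under 0.05, beside 8688 of 17130 genes negative and 3.54% called in either direction.

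Of 14 genes that hydroxylate or glycosylate collagen chains, 11 had negative values and 3 an unadjusted p under 0.05: *Crtap* and *P3h3*, of the prolyl 3-hydroxylation machinery, and *P4ha3*, a prolyl 4-hydroxylase subunit, with log2 fold changes of -0.41, -0.34 and -0.55, and of -0.17, -0.13 and -0.34 without *Pou4f3(Δ/+)* replicates 1 and 2. The median of the whole list was -0.15 with all samples and -0.22 without those replicates, where 13 of the 14 were negative. *P4hb*, the most abundant of the list, was between 181 and 197 FPKM in wildtype and between 159 and 184 FPKM in *Pou4f3(Δ/+)*, and *Plod3*, a lysyl hydroxylase, had a log2 fold change of -0.16. Of 10 folding and export genes, 8 had negative values with all samples and 8 without those replicates, with medians of -0.15 and -0.17. *Fkbp10*, a chaperone of type I procollagen, had 13.6, 14.4 and 16.9 FPKM in wildtype against 9.50, 8.72 and 12.4 FPKM in *Pou4f3(Δ/+)*, without overlap (log2 fold change -0.57, edgeR unadjusted p = 0.00212), and *Sec24d*, a coat protein of procollagen export, had a log2 fold change of -0.19 (unadjusted p = 0.0409). *Sparc* and *Ppib*, the most abundant of that list, had values of -0.12 and -0.08.

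Of 12 genes for propeptide removal and cross-linking, 6 had negative values, near the share over all genes, and 2 an unadjusted p under 0.05, *Bmp1*, which cuts the C-propeptide, and *Pcolce*, its enhancer. *Pcolce* had 43.9, 43.9 and 55.1 FPKM in wildtype against 29.8, 30.3 and 38.8 FPKM in *Pou4f3(Δ/+)*, with no overlap (log2 fold change -0.53, edgeR unadjusted p = 0.00341, and -0.28 without *Pou4f3(Δ/+)* replicates 1 and 2). *Bmp1* had a log2 fold change of -0.32, and *Lox*, the enzyme that starts cross-linking, 0.21 with overlapping groups and -0.30 without *Pou4f3(Δ/+)* replicates 1 and 2.

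The small leucine-rich proteoglycans, which bind fibrils and set their width, had the lowest median of the 7 lists at -0.32, with 10 of 11 negative. *Bgn* had 218, 247 and 264 FPKM in wildtype against 162, 147 and 193 FPKM in *Pou4f3(Δ/+)*, without overlap, and was called by DESeq2 (log2 fold change -0.51, edgeR adjusted p = 0.643, DESeq2 adjusted p = 0.00553). *Prelp* was the other DESeq2 call of the 7 lists (log2 fold change -0.55, DESeq2 adjusted p = 0.0359). *Ogn* (-0.28) and *Omd* (-0.46), a proteoglycan of bone, had unadjusted p under 0.05, and *Dcn* was -0.32. Without *Pou4f3(Δ/+)* replicates 1 and 2 the median of this list was 0.00.

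Of 11 collagen breakdown genes 5 had negative values, with a median of 0.00 and 2 with an unadjusted p under 0.05, the gelatinase *Mmp2* (-0.27) and its inhibitor *Timp2* (-0.20). *Ctsk* and *Mmp9*, the abundant osteoclast proteases, had values of -0.22 and 0.03. The summed CPM of this list split the mutant samples the other way. It was 3662 and 3799 in *Pou4f3(Δ/+)* replicates 1 and 2 and 2496 in replicate 3, beside 2936 to 3545 in wildtype. *Mmp13* had 112, 85.7 and 129 FPKM in wildtype against 204, 182 and 67.3 FPKM in *Pou4f3(Δ/+)*. *Mmp8* had 164, 190 and 228 FPKM against 216, 335 and 154 FPKM, and both are named after their values were seen. Among the mutant samples, *Mmp2* and *Timp2* were instead highest in replicate 3. Without replicates 1 and 2, 9 of the 11 were negative, the median was -0.23 and 4 had an unadjusted p under 0.05, beside 3.54% of all genes in that comparison. Of 9 collagen receptor genes 5 had negative values and 0 an unadjusted p under 0.05, and *Itgb1*, the shared integrin subunit, was between 107 and 117 FPKM in all samples, with *Ddr2* at -0.28. All 11 genes for laminins and other basement membrane partners had negative values, and *Nid2* (-0.34) had an unadjusted p under 0.05. The median of that list was -0.17, and -0.08 without *Pou4f3(Δ/+)* replicates 1 and 2, where 9 of the 11 were negative. The most abundant genes of that list, *Lamb2* and *Lamc1*, had values of -0.17 and -0.17 with all samples.

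B cell and erythroid markers were highest in the libraries that stood apart. The summed CPM of 9 B cell markers was between 235 and 286 in wildtype. In the mutant samples it was 539, 593 and 295, in replicate order, and the first pair was far above all others. All 9 had positive values with an unadjusted p under 0.05, beside 3.5% of all genes called as higher, and DESeq2 called 5. By edgeR, 0 of the 9 had an unadjusted p under 0.05 without *Pou4f3(Δ/+)* replicates 1 and 2, with a median log2 fold change of 0.21 (0.88 with all samples). The 7 erythroid markers summed to between 8630 and 10057 CPM in wildtype and 11895, 13397 and 9317 CPM in *Pou4f3(Δ/+)*, all 7 with positive values and 2 with an unadjusted p under 0.05, against 0 without *Pou4f3(Δ/+)* replicates 1 and 2. Of the 9 bone-forming cell markers 6 had negative values and 4 an unadjusted p under 0.05, each lower, beside 4.14% of all genes. The osteocalcin genes *Bglap* and *Bglap2* and the osteocyte gene *Sost* had positive values of 0.38, 0.26 and 0.04, and of 0.98, 0.86 and 0.24 without *Pou4f3(Δ/+)* replicates 1 and 2. *Sp7*, the transcription factor of osteoblasts, was 19.0, 21.3 and 26.4 FPKM in wildtype against 14.9, 13.5 and 14.8 FPKM in *Pou4f3(Δ/+)* (DESeq2 adjusted p = 0.00553), and *Alpl*, the alkaline phosphatase of bone, was 66.7, 76.5 and 85.1 FPKM against 35.7, 20.2 and 55.5 FPKM. Their log2 fold changes were -0.63 and -1.07, and -0.61 and -0.48 without those replicates. Over the whole list the median was -0.21 with all samples and -0.10 without them, where 6 were again negative and 4 had an unadjusted p under 0.05, beside 3.54% of all genes. The summed CPM of this list overlapped, at 1591 to 2084 in wildtype and 1301 to 1689 in *Pou4f3(Δ/+)*.

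The 6 markers of pericytes and smooth muscle summed to between 411 and 495 CPM in wildtype and between 326 and 446 CPM in *Pou4f3(Δ/+)*, 5 of them with negative values. Of these, *Rgs5* (-0.44), *Cspg4* (-0.48) and *Tagln* (-0.63) had an unadjusted p under 0.05, beside 4.14% of all genes called as lower. The median of the list was -0.42, and -0.05 without *Pou4f3(Δ/+)* replicates 1 and 2, where 0 had an unadjusted p under 0.05 by edgeR. The 6 tested tectorial membrane genes had 5 positive values, beside 8472 of all 17136 genes tested, and *Tecta* and *Tectb* were at or under 1.36 FPKM. *Ceacam16*, a non-collagen protein of that membrane, was 88.0, 88.8 and 102 FPKM in wildtype against 117, 111 and 105 FPKM in *Pou4f3(Δ/+)*, above wildtype in each sample. Its log2 fold change was 0.25 (edgeR unadjusted p = 0.0177, adjusted p = 0.643). In CPM, 1040 of the 17136 genes had all 3 *Pou4f3(Δ/+)* samples above all 3 wildtype samples. Of the hair cell markers 5 of 9 had positive values, with summed CPM of 616 to 662 in wildtype and 549 to 650 in *Pou4f3(Δ/+)*. Of the tested chondrocyte markers 3 of 6 had negative values (269 to 307 and 242 to 333 summed CPM). Their levels ranged widely, with means over all samples of 102 FPKM for *Cnmd*, 22.2 for *Sox9* and 7.19 for *Comp*. The means were 4.37 FPKM for *Acan*, 3.26 for *Hapln1* and 0.432 for *Matn1*, and the untested *Matn3* was at 0 or near it in every sample. For the fibroblast markers 5 of 5 tested were negative (570.5 to 754 and 474 to 645 summed CPM), for osteoclast markers 5 of 7 (1495 to 1957 and 1210 to 2040), for spiral ligament fibrocyte markers 4 of 6 (6359 to 8384 and 5951 to 6464), for endothelial markers 5 of 6 (290 to 337 and 284 to 314), for Schwann cell markers 5 of 6 (1953 to 2259 and 1690 to 2264) and for neutrophil markers 5 of 7 (12010 to 14212 and 11585 to 14023). Without *Pou4f3(Δ/+)* replicates 1 and 2, 2 of the 5 fibroblast markers were negative, with a median of 0.02 (-0.30 with all samples). In that comparison 1 of 6 spiral ligament fibrocyte, 4 of 6 endothelial, 2 of 6 Schwann cell and 3 of 7 neutrophil markers were negative. For the osteoclast markers, all 7 were negative without *Pou4f3(Δ/+)* replicates 1 and 2, with a median of -0.71 (-0.22 with all samples) and 6 with an unadjusted p under 0.05, beside 3.54% of all genes in that comparison (0 of the 7 by edgeR with all samples). The part of these markers in the collagen differences was not tested.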

How the data were processed

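Whole cochleae (3 wildtype and 3 *Pou4f3(Δ/+)* samples) were profiled by paired-end RNA-seq of total RNA after poly(A) selection or removal of ribosomal RNA. For each transcript the authors deposited an estimated count and its FPKM, which corrects for transcript length and library depth. The submitters' processing notes name the mm8 build and DESeq2. The aligner, the counter and the annotation are not given in the sources used here. Of the 216 collagen transcript identifiers, 215 were found in GENCODE M21 (GRCm38), whose coordinates are given. Estimated counts, rounded to whole numbers, were summed per symbol. Genes or transcripts with too few counts were removed (filterByExpr, minimum count 10), libraries were scaled by TMM, and the groups were compared with the quasi-likelihood test of edgeR 4.0.16 in R 4.3.3 without covariates, with Benjamini-Hochberg adjustment over all features. Standard errors and 95% intervals came from that fit. Alternatives used DESeq2 1.42.0 and limma 3.58.1 on log2(FPKM + 0.5), with the offset also at 0.1 and 1, other scalings and filters, and fewer samples. The code was tested on simulated data. Summed counts were between 14295069 and 17696784 per sample, and with 3 samples per group the spread between samples limits the precision. No pair of samples had counts that agreed within sampling noise. The genes, gene lists and tests were chosen with earlier results of these data known. Named with values were the *Col2a1*, Col4, Col9 and Col11 genes, the 3 most abundant of every other class, members with an unadjusted p under 0.05, a call or groups without overlap in CPM, the 5 transcripts with the smallest p, and, of the pathway lists, the 2 most abundant genes and those with an unadjusted p under 0.05.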

Additional observations from a re-analysis of the deposited data

How the results depend on the processing

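Of 432 repeats for the 31 collagen genes that met the naming rule, 407 kept the sign and the side of the adjusted threshold. By adjusted p under 0.05, DESeq2 and edgeR without a count filter each called 1 collagen gene (*Col12a1*, adjusted p 0.000263 and 0.0329, with 9 calls among all genes in the latter), and leaving out each sample in turn gave 0 to 5. The 5 came without *Pou4f3(Δ/+)* replicate 3, where 193 of all genes were called: *Col11a2* (0.0183), *Col9a2* (0.0181), *Col12a1* (0.0300), *Col9a1* (0.0300) and *Col16a1* (0.0452). The count of 12 genes at an unadjusted p under 0.05 was 6 to 20 when each sample was left out (6 without wildtype replicate 5, 7 without *Pou4f3(Δ/+)* replicate 1, 6 without replicate 2, 20 without replicate 3), 4 without both replicates 1 and 2, and 18 without a count filter. The count over all genes moved too, from 1309 of 17136 to, in the same order, 749 of 17305, 771 of 17290, 737 of 17510, 3041 of 17513, 655 of 18106 (606 of the 17130 also tested with all samples) and 1924 of 27491. For transcripts, DESeq2 called 1.

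Without both *Pou4f3(Δ/+)* replicates 1 and 2, a comparison chosen after seeing the data in which the remaining sample is assumed to vary like wildtype, the log2 fold changes with reversed sign were 0.0103 for *Col11a2*, 0.15 for *Col11a1*, 0.0869 for *Col9a2*, 0.19 for *Col9a3*, 0.13 for *Col9a1*, -0.19 for *Col4a1*, -0.14 for *Col4a2*, 0.12 for *Col4a5*, 0.35 for *Col4a6*, 0.0184 for *Col25a1*, 0.0351 for *Col23a1* and, outside the naming rule, 0.24 for *Col14a1* and 0.37 for *Col19a1*. In the same comparison the log2 difference of summed FPKM was -0.18 for fibrillar genes (from -0.48), -0.0632 for FACIT (from -0.52), -0.0418 for transmembrane (from -0.30), 0.0472 for cartilage-type (from -0.32) and -0.16 for all collagens (from -0.43). The log2 difference of chain ratios was -0.11 for *Col1a1* to *Col1a2* (from -0.28), 0.18 for *Col9a1* to *Col9a2* (from -0.09), 0.10 for *Col9a3* to *Col9a2* (from 0.26), 0.20 for *Col11a1* to *Col11a2* (from 0.43), -0.12 for *Col6a3* to *Col6a2* (from -0.65) and -0.30 for *Col5a1* to *Col5a2* (from 0.27). The share of the leading transcript differed by -0.96 percentage points for *Col1a2* (from -0.75), -9.46 for *Col2a1* (from 5.30), 1.12 for *Col9a3* (from -11.3), -42.2 for *Col14a1* (from -16.0) and 7.01 for *Col16a1* (from 14.7). Leaving out single samples turned the sign for *Col11a1* (-0.21 to 0.10), *Col6a1* (-0.25 to 0.0187), *Col6a2* (-0.30 to 0.0357), *Col18a1* (-0.38 to 0.0617) and *Col4a6* (-0.49 to 0.0404). The cause was not tested. No paired analysis was possible because the groups share only replicate number 3. The 5 genes below the count filter of the main fit had few counts. They entered the fit without that filter, where *Col12a1* was the only collagen gene with an edgeR adjusted p under 0.05.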
